A study of Homo sapiens with 9 samples.

Results

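The genes described here are 10 transcription factors and partner proteins of squamous epithelium, followed across the 9 RNA libraries of the series: TP63, SOX2, TRIM29, KLF4, KLF5, GRHL1, GRHL2, GRHL3, TFAP2A and TFAP2C. They were chosen by gene symbol, and all 10 were found among the 35762 gene symbols of the deposited table. The libraries came from TYUC-1, an established cancer cell line that the labels place as neuroendocrine esophageal carcinoma, grown in suspension with serum. Cells were taken on day 0, day 3 or day 6 of EPZ-6438, a small-molecule inhibitor of EZH2, with 3 biological replicates a day. EZH2 is the enzyme of PRC2, a Polycomb complex that methylates histone H3 at lysine 27 and keeps genes silent. The protocol names 2 uM EPZ-6438 or DMSO, every library carries EPZ-6438 as its treatment, and the labels leave unsaid whether DMSO was given before day 0. No vehicle library of day 3 or day 6 was analysed here, so the drug and the time in culture cannot be told apart in any comparison. The series covers 1 cell line, with no second line or clone beside it.

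As background, p63, the product of TP63, is the master regulator of basal cells in squamous epithelia, where it binds enhancers together with AP-2, KLF and grainyhead-like factors. SOX2 patterns the foregut, is needed for the squamous esophagus, and is co-amplified with TP63 in many squamous carcinomas. TRIM29 is a TRIM family protein without a RING domain that is abundant in basal squamous cells. KLF4 acts in the upper, differentiating layers and KLF5 in the proliferating layers. GRHL1, GRHL2 and GRHL3 control cell junctions and the epidermal barrier, and TFAP2A and TFAP2C, which encode AP-2 alpha and AP-2 gamma, act early in surface ectoderm and keratinocyte commitment.

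Totals ran between 21638874 and 31235055 estimated counts a library, so that a floor of 3 counts corresponded to 0.098 to 0.141 CPM. CPM is the count scaled to the size of its library after TMM adjustment, a scaling factor that sets most genes level between libraries. Library 2 of day 0 stood apart: its log2 CPM correlated at 0.976 with either of the other day 0 libraries, against 0.990 to 0.997 for the other same-day pairs. Results that rest on it are given with and without it. The target gene EZH2 averaged 193 ± 3.95, 167 ± 2.34 and 150.3 ± 8.46 CPM on day 0, day 3 and day 6 (SD, n = 3 each), which does not measure the inhibition of its enzyme. The neuroendocrine label was met in part, because SYP, which encodes the vesicle protein synaptophysin, averaged 5.85 ± 0.948 CPM on day 0 while the granule protein gene CHGA was at 0 in all 9 libraries. Of the 5 squamous markers, TP63, KRT14 and KRT6A were at or near 0 on day 0, the basal keratin gene KRT5 averaged 1.05 ± 0.100 CPM and the mucosal keratin gene KRT13 averaged 10.3 ± 0.653 CPM. Other squamous-associated genes were well counted on that day, such as KRT15 at 10.5 ± 1.42 CPM and EVPL, a cornified envelope gene, at 26.9 ± 8.31 CPM.

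Promoter sequence is shown for 4 of the genes, because PRC2 is known to act chiefly at promoters rich in the dinucleotide CG. TP63 and SOX2 had the highest fold changes of the 10 on day 3, GRHL3 was counted mainly on day 6, and GRHL1 had the most CG dinucleotides. Each line gives the 250 bases before a RefSeq start site on GRCh38.p14, 5′ to 3′ on the strand of the gene, with every CG in capitals. The windows lie at chr3:189631139-189631388 for TP63, chr3:181711675-181711924 for SOX2, chr1:24319107-24319356 for GRHL3 and chr2:9951443-9951692 for GRHL1, all on the + strand.
TP63: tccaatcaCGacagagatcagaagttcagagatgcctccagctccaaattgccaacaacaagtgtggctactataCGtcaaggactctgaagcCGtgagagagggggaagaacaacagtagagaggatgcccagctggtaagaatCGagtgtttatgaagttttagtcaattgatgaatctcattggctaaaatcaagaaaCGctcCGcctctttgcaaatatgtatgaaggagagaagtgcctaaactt
SOX2: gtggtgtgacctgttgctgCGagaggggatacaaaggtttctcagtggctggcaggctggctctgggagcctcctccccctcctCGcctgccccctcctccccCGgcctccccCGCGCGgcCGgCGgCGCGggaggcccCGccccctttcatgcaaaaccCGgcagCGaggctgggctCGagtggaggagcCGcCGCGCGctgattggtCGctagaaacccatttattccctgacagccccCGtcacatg
GRHL3: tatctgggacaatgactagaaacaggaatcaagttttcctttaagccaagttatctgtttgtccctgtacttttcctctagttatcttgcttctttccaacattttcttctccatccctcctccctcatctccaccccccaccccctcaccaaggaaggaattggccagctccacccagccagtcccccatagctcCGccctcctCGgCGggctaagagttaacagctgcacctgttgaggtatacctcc
GRHL1: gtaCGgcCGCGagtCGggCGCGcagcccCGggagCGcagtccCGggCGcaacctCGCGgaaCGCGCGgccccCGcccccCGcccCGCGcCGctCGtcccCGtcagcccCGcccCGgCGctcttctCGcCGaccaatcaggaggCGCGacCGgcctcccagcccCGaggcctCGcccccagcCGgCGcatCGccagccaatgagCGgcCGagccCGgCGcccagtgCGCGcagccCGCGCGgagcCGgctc

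The windows held 6 CG dinucleotides at this TP63 start, 20 at SOX2, 3 at this GRHL3 start and 45 at GRHL1. Across the 35116 RefSeq promoter windows of this length the median was 11, with quartiles of 3 and 23, and GRHL1 exceeded 99.4% of them. RefSeq windows were matched for 7 of the 10 genes at 10 start sites in all. The other starts held 25 at KLF4, 3 and 27 at KLF5, 10 at the second GRHL3 start, and 13 and 15 at TFAP2A. TRIM29, GRHL2 and TFAP2C had no entry. Both TP63 and SOX2 were near the detection limit on day 0. The window of TP63 had a CG count under the median and that of SOX2 above it. The TP63 window lies at the upstream end of the gene, whose coding transcripts have 6 start positions. No window was matched further inside TP63, so this count does not describe its other promoters.

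Letters of 4 binding motifs were searched on both strands of these 10 windows, as a description of the sequence alone. The AP-2 letters GCCNNNGGC were found at 3 starts (SOX2, KLF4 and 1 start of GRHL3) and in 19.8% of all windows. The SOX letters ACAATG were found at 3 starts (1 of KLF5 and both of GRHL3) and in 9.29% of all windows. The KLF letters CCACCC were found at 3 starts (both of GRHL3 and 1 of TFAP2A) and in 31.3% of all windows. The grainyhead letters AACCGGTT were in none of the 10 windows and in 0.117% of all windows.

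On day 3, TP63, SOX2 and TRIM29 were higher than on day 0 and TFAP2A was lower, by edgeR's quasi-likelihood test with Benjamini-Hochberg adjustment over all 15345 genes tested at a threshold of 0.05. Of all genes tested 40.6% were called in this comparison, 22.5% higher and 18.1% lower. On day 6, TP63, SOX2, TRIM29, GRHL2 and GRHL3 were higher than on day 0 and KLF5, GRHL1 and TFAP2A were lower, beside 54.6% of all genes called, 28.9% higher and 25.7% lower. Between day 6 and day 3, SOX2, TRIM29 and GRHL3 were higher on day 6 and the other 7 were not called, beside 16.3% of all genes called, 11.5% higher and 4.76% lower. KLF4 and TFAP2C were not called in any of the 3 comparisons. All 10 genes passed the filter on low counts, but TP63 and SOX2 passed only through days 3 and 6 and GRHL3 only through day 6. Those 3 therefore had to differ to be tested, and the number called is given as a description. In bulk RNA, a change in the number of cells that express a gene and a change in RNA per cell cannot be told apart.

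**Figure D1:**
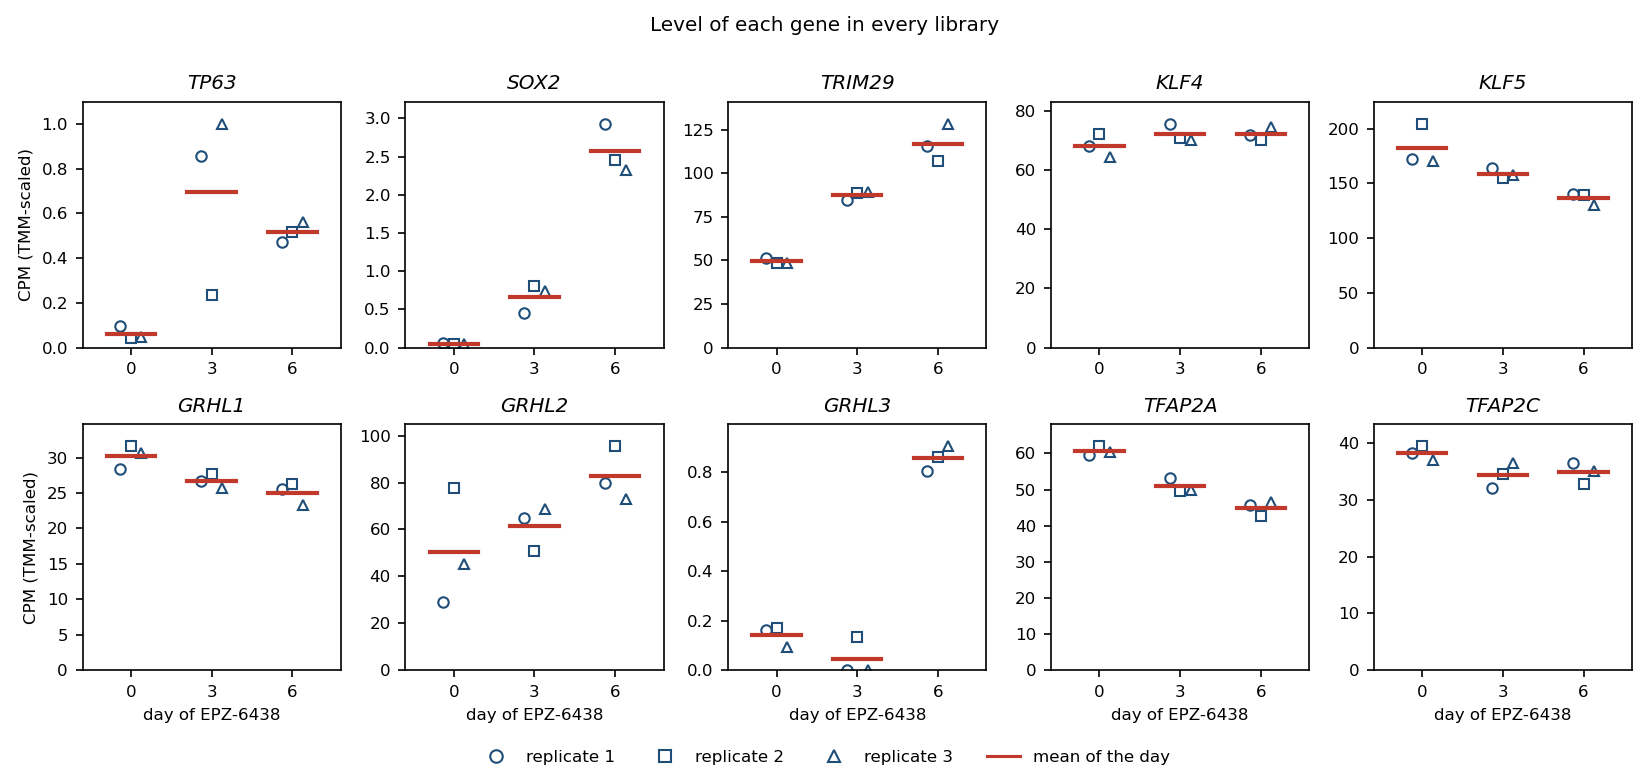
CPM of each gene in each of the 9 libraries, by day of EPZ-6438 in its own panel; symbols are replicates 1, 2 and 3 and lines are the mean of the day. TRIM29 climbs at each step, TFAP2A and KLF5 are highest on day 0, and GRHL2 has a day 0 library at 77.6 CPM next to others at 28.9 and 45.1 CPM.

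TP63 was counted in every library but stayed scarce throughout. The 3 libraries held 3, 1 and 1 counts on day 0, 23, 7 and 23 on day 3, and 14, 12 and 13 on day 6. In CPM these were 0.0980, 0.0425 and 0.0470 on day 0, 0.857, 0.234 and 1.00 on day 3, and 0.471, 0.517 and 0.560 on day 6. Every library of days 3 and 6 was above every library of day 0, while the day 3 and day 6 libraries overlapped, with library 2 of day 3 the lowest of those 6. TP63 had a log2 fold change of 3.28 (SE 0.65, adjusted p = 0.00206, edgeR) for day 3 against day 0 and 2.87 (SE 0.67, adjusted p = 0.00344, edgeR) for day 6 against day 0. Pooled over a day, 53 counts on day 3 against 5 on day 0 gave a ratio of 10.0 (exact 95% Poisson interval 4.04 to 32.1), and 39 on day 6 against those 5 gave 7.72 (3.04 to 25.1). The ratio of day 6 to day 3 was 0.770 (0.496 to 1.19), an interval that includes no change, and the fitted difference had an adjusted p of 0.624 in edgeR. These intervals cover counting error only.

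TP63 lies at chr3:189631416-189897279 on the + strand (GENCODE release 29, GRCh38), with 12 coding transcripts from 6 start positions. The long TAp63 and the short DeltaNp63 forms come from different promoters of this locus, and DeltaNp63 is the form of basal squamous cells. The deposited counts are per gene, so they do not say which form was counted.

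SOX2, a pluripotency and foregut transcription factor, rose by day 3 and rose again by day 6. Its libraries held 2, 1 and 1 counts on day 0, 12, 24 and 17 on day 3, and 87, 57 and 54 on day 6. The levels were 0.0653, 0.0425 and 0.0470 CPM on day 0, 0.447, 0.803 and 0.739 CPM on day 3, and 2.93, 2.46 and 2.33 CPM on day 6. No library of any day overlapped one of another day. SOX2 had a log2 fold change of 3.53 (SE 0.45, adjusted p = 0.000125, edgeR) for day 3 against day 0, 5.48 (SE 0.39, adjusted p = 3.64e-07, edgeR) for day 6 against day 0, and 1.95 (SE 0.26, adjusted p = 0.000253, edgeR) for day 6 against day 3. With only 4 counts on day 0, the pooled ratio of day 6 to day 0 was 49.0 with an interval of 18.8 to 182, and that of day 3 to day 0 was 12.5 (4.62 to 47.7). Day 6 against day 3, with 198 and 53 pooled counts, was measured more closely at 3.91 (2.87 to 5.40).

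SOX2 is a gene at chr3:181711924-181714436 on the + strand, lying inside the long noncoding gene SOX2-OT on the same strand. SOX2-OT was not analysed here, and reads of the 2 genes within their shared bases could not be separated by strand.

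TRIM29 was abundant from the start and rose at each step. It measured 51.2, 48.6 and 48.6 CPM on day 0, 84.4, 88.7 and 89.3 CPM on day 3, and 115, 107 and 128 CPM on day 6. The 3 days did not overlap, and the SD was 1.51, 2.70 and 10.7 CPM on day 0, day 3 and day 6. Its log2 fold change was 0.82 (SE 0.08, adjusted p = 1.53e-05, edgeR) for day 3 against day 0, 1.24 (SE 0.08, adjusted p = 1.63e-07, edgeR) for day 6 against day 0 and 0.42 (SE 0.08, adjusted p = 0.00290, edgeR) for day 6 against day 3. TRIM29 lies at chr11:120111275-120185529 on the - strand. TRIM29 kept its calls of both later days against day 0 under every alternative. TP63 and SOX2 kept theirs wherever they were tested. Those 2 genes passed the filter on low counts only through later days, so their kept calls are a description alone. For day 3 against day 0, TP63 was tested in 16 of the 18 alternatives. It was not tested with genes averaging under 5 CPM left out or with days 3 and 0 fitted alone.

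GRHL3, the grainyhead-like factor of terminal differentiation and barrier formation, was counted mainly on day 6. Its libraries held 5, 4 and 2 counts on day 0, 0, 4 and 0 on day 3, and 24, 20 and 21 on day 6. That is 0.163, 0.170 and 0.094 CPM on day 0, 0.134 CPM in a single library of day 3, and 0.807, 0.862 and 0.904 CPM on day 6. All libraries of day 6 were above all others, and days 0 and 3 overlapped. Its log2 fold change was 2.52 (SE 0.53, adjusted p = 0.00169, edgeR) for day 6 against day 0 and 3.98 (SE 0.63, adjusted p = 0.000969, edgeR) for day 6 against day 3. Without library 2 of day 3, the other day 3 libraries had no count and the fitted log2 fold change for day 6 against day 3 was 7.44, which depends on the prior count and is no bound. Pooled counts of 65 on day 6 against 4 on day 3 gave a ratio of 17.0 (95% interval 6.33 to 64.3), and against 11 on day 0 a ratio of 5.85 (3.06 to 12.3). For day 3 against day 0 the ratio was 0.344 (0.0799 to 1.16) and the adjusted p was 0.189 in edgeR, but 0.0358 in limma-voom and 0.0126 without library 2 of day 3.

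GRHL3 lies at chr1:24319322-24364482 on the + strand and overlaps STPG1 on the other strand. STPG1 averaged 19.5 ± 1.43 CPM on day 6 and 18.1 ± 1.70 CPM on day 3 (SD, n = 3 each), with an adjusted p of 0.495 in edgeR. The exons of both genes share 0 of the 3940 merged exon bases of GRHL3 in the annotation.

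GRHL2, which maintains the epithelial junction programme, varied more between replicates than any other gene of the 10 with over 1 CPM on every day. It measured 28.9, 77.6 and 45.1 CPM on day 0, 64.9, 50.7 and 68.8 CPM on day 3, and 80.0, 95.4 and 73.1 CPM on day 6. Library 2 of day 0 lay above all day 3 libraries and above the lowest of day 6, while the other day 0 libraries lay below all later ones. The log2 fold change for day 6 against day 0 was 0.72 (SE 0.27, adjusted p = 0.0395, edgeR), with the adjusted p between 3.49e-05 and 0.141 over the 18 alternatives. Without library 2 of day 0 the value was 1.17 (adjusted p = 3.49e-05, edgeR), and day 3 against day 0 then passed as well, at 0.74 (adjusted p = 0.00251, edgeR) against 0.28 (adjusted p = 0.424, edgeR) with all libraries. The day 6 call was lost in 9 alternatives, among them DESeq2 (adjusted p = 0.0917), day 0 and day 6 fitted alone (0.0575), and the removal of any single library other than library 2 of day 0 or library 2 of day 3. GRHL2 lies at chr8:101492432-101669726 on the + strand.

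GRHL1, a further grainyhead-like factor of desmosomal genes, moved the other way by a small amount. Its levels were 28.5, 31.6 and 30.7 CPM on day 0, 26.6, 27.7 and 25.7 CPM on day 3, and 25.5, 26.3 and 23.3 CPM on day 6. Day 0 lay above both later days, and days 3 and 6 overlapped. GRHL1 had a log2 fold change of -0.27 (SE 0.08, adjusted p = 0.0128, edgeR) for day 6 against day 0 and -0.18 (SE 0.08, adjusted p = 0.0889, edgeR) for day 3 against day 0. The day 6 call was lost with library size as the only scaling (adjusted p = 0.137) and with genes averaging under 5 CPM left out (adjusted p = 0.0601). GRHL1 lies at chr2:9951693-10002277 on the + strand.

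Among the 3 grainyhead-like genes, GRHL1 was thus lower on day 6 than on day 0 while GRHL2 and GRHL3 were higher. Their levels per length differed widely on that day, with means of 13.7 for GRHL2, 3.15 for GRHL1 and 0.218 for GRHL3 in CPM per kilobase of merged exons.

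KLF5, the Krüppel-like factor of proliferating epithelium, had the highest level per length of the 10 on every day and fell by day 6. It measured 172, 204 and 170.5 CPM on day 0, 164, 155 and 157 CPM on day 3, and 140.4, 139.5 and 130.0 CPM on day 6. No libraries of different days overlapped, and library 2 was the highest of day 0. For day 6 against day 0 the log2 fold change was -0.42 (SE 0.08, adjusted p = 0.00119, edgeR). Day 3 against day 0, at -0.20 (SE 0.08), missed the threshold in edgeR (adjusted p = 0.0729) and passed it in DESeq2 (adjusted p = 0.0380). KLF5 lies at chr13:73054976-73077542 on the + strand.

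KLF4, the differentiation-layer Krüppel-like factor, did not pass in any comparison. Its libraries gave 68.2, 72.1 and 64.4 CPM on day 0, 75.6, 70.8 and 70.1 CPM on day 3, and 71.8, 70.2 and 74.6 CPM on day 6. All pairs of days overlapped. The log2 fold change was 0.08 (SE 0.07, adjusted p = 0.365, edgeR) for day 6 against day 0 and 0.00 (adjusted p = 0.997, edgeR) for day 6 against day 3. With library size as the only scaling, day 6 against day 0 passed at 0.20 (adjusted p = 0.0272), where the median of all genes also moved to 0.13 on the log2 scale, against 0.01 with TMM. KLF4 lies at chr9:107484852-107490482 on the - strand, and its processed pseudogene KLF4P1 was at 0 in all 9 libraries.

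TFAP2A was lower on both later days than on day 0, with little spread within a day. It measured 59.6, 61.9 and 60.4 CPM on day 0, 53.3, 49.7 and 49.8 CPM on day 3, and 45.7, 42.8 and 46.5 CPM on day 6. The 3 days did not overlap. The log2 fold change was -0.25 (SE 0.07, adjusted p = 0.0123, edgeR) for day 3 against day 0 and -0.43 (SE 0.07, adjusted p = 0.000247, edgeR) for day 6 against day 0. The day 3 call was lost with library size as the only scaling (adjusted p = 0.0636), without library 2 of day 3 (0.0593) and without library 3 of day 3 (0.0532). TFAP2A lies at chr6:10393186-10419659 on the - strand, with the antisense genes TFAP2A-AS1 and TFAP2A-AS2 on the other. Use of strand in the counting is not given in the sources used here. Reads within bases shared by such a pair could therefore not be told apart by strand. The bases that TFAP2A shares with its antisense genes were not measured. Antisense genes also overlap TRIM29, GRHL2 and GRHL3.

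TFAP2C, the second AP-2 gene, was likewise not called between any 2 days. Its levels were 38.3, 39.5 and 37.0 CPM on day 0, 32.1, 34.5 and 36.5 CPM on day 3, and 36.6, 32.9 and 35.1 CPM on day 6. Both later days lay below day 0 without overlap, but narrowly. The log2 fold change was -0.13 (SE 0.08, adjusted p = 0.168, edgeR) for day 6 against day 0 and -0.16 (SE 0.08, adjusted p = 0.127, edgeR) for day 3 against day 0. TFAP2C lies at chr20:56629302-56639283 on the + strand.

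**Figure D2:**
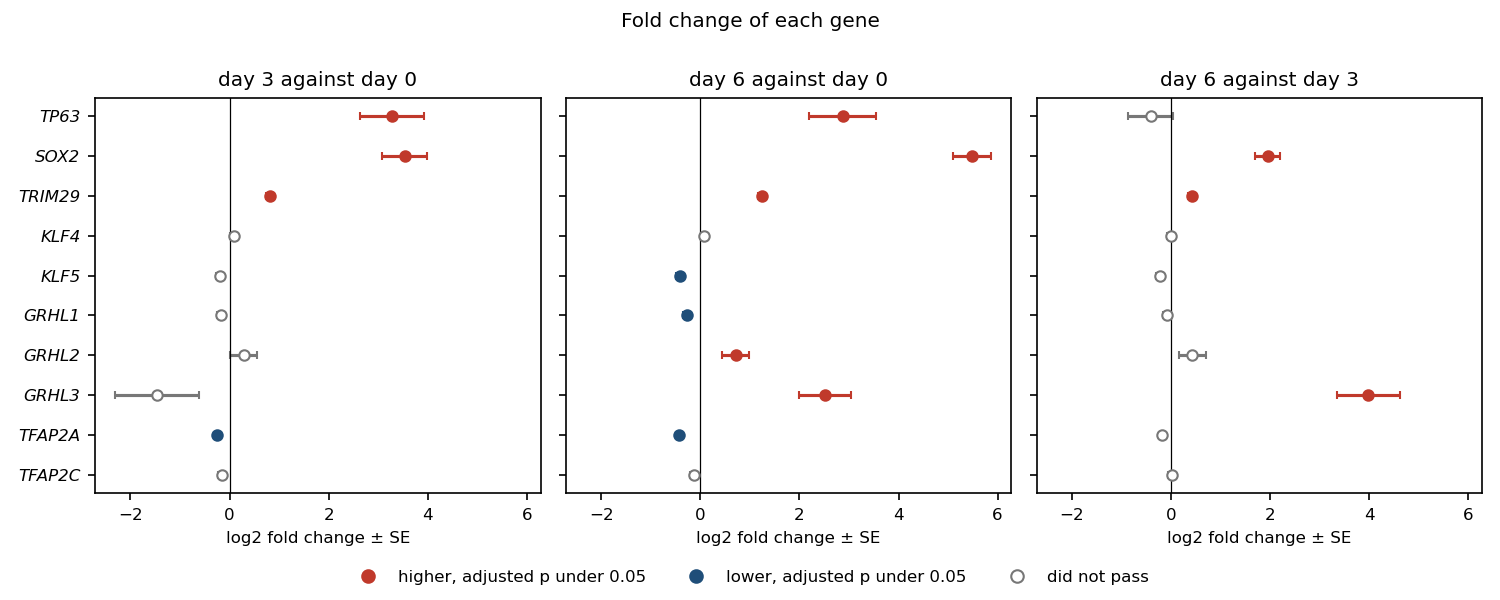
Log2 fold change of each gene in the 3 comparisons, later day over earlier day, with bars of 1 SE from edgeR; filled symbols passed an adjusted p of 0.05. SOX2 reaches 5.48 for day 6 against day 0 and GRHL3 3.98 for day 6 against day 3, while KLF4, KLF5, GRHL1, TFAP2A and TFAP2C lie between -0.43 and 0.08.

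Separation of the libraries alone was a loose criterion here. Libraries of day 3 and day 0 did not overlap for 7 of the 10 genes, beside 53.8% of all genes tested. For day 6 and day 0 this held for 8 of the 10, beside 58.7%, and for day 6 and day 3 for 6 of the 10, beside 43.5%. TRIM29 had a higher log2 fold change on day 3 against day 0 than 87.2% of all genes tested, TP63 than 98.3% and SOX2 than 98.6%. TP63 and SOX2 had 5 and 4 pooled counts on day 0 and were tested only through later days. Their places in this order therefore follow in part from the filter and do not set them above TRIM29.

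The comparison of day 6 with day 3 depended on library 2 of day 0, through the spread that all days share in the fit. Without it 6 of the 10 genes were called, with KLF5 and TFAP2A added as lower and GRHL2 as higher on day 6. The number of all genes called then was 4681, against 2497 with all libraries. Days 6 and 3 fitted alone also gave 6 of the 10, beside 4331 of all genes.

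Levels of different genes were set in order as CPM per kilobase of merged exons. On day 0 the means were 46.8 for KLF5, 18.7 for KLF4, 12.7 for TFAP2C, 8.34 for GRHL2, 7.33 for TFAP2A, 4.84 for TRIM29 and 3.80 for GRHL1. GRHL3, SOX2 and TP63 came last on day 0, at 0.0362, 0.0205 and 0.00839 CPM per kilobase. The libraries of GRHL2 spanned 4.76 to 12.8 on day 0 and so overlapped those of TFAP2C, TFAP2A and TRIM29. GRHL3, SOX2 and TP63 had between 1 and 5 counts a library on day 0, too few to set an order among them.

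By day 6 the order had changed in its middle and at its end. KLF5 at 35.1 and KLF4 at 19.7 CPM per kilobase still came first, followed by GRHL2 at 13.7, TFAP2C at 11.6 and TRIM29 at 11.4. The libraries of GRHL2, TFAP2C and TRIM29 overlapped pairwise, so those 3 were not separated by their spread. TFAP2A at 5.44 and GRHL1 at 3.15 followed, and SOX2 at 1.02, GRHL3 at 0.218 and TP63 at 0.0692 closed the order without overlap. TRIM29 stood below TFAP2A on day 0 and above it on days 3 and 6. TP63 was the lowest of the 10 per length on day 6, under its partner TRIM29 and under every AP-2, KLF and grainyhead-like gene.

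**Figure D3:**
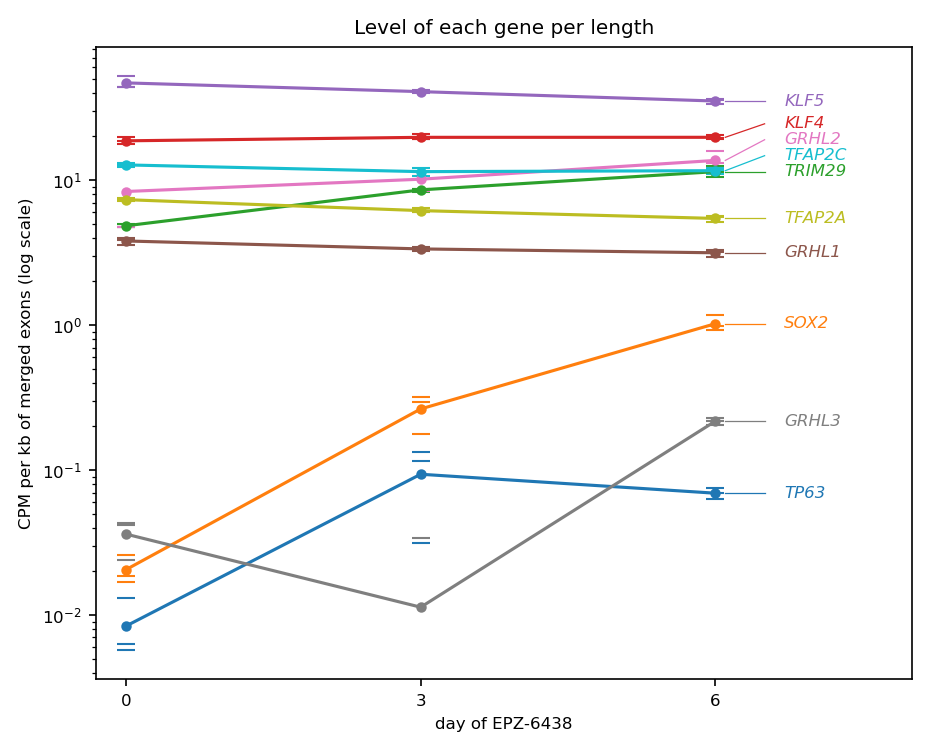
Level of each gene per length, in CPM per kilobase of merged exons on a log scale, by day; points joined by lines are means of 3 libraries and short bars are single libraries, of which those at 0 (2 of GRHL3 on day 3) cannot be drawn. KLF5 leads at 46.8 on day 0 and 35.1 on day 6, and SOX2 climbs to 1.02 on day 6.

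Genes listed as regulators of p63 protein and members of the p53 family were followed next, 10 in all and all tested. The ubiquitin ligase genes FBXW7 (-0.56), MDM2 (-0.48) and ITCH (-0.31) were lower on day 6 than on day 0. In all 2 were higher and 4 lower on day 6 than on day 0, and 1 was higher in 9 of the alternatives: without a filter on low counts, with days 6 and 0 fitted alone, and without any single library other than library 2 of day 0 or library 2 of day 6. The median log2 fold change was -0.19, beside 0.01 over all genes. Of all genes tested, 28.9% were higher and 25.7% lower on day 6 than on day 0.

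Of 35 listed targets of p63 in basal squamous cells, 26 were tested. In day 3 against day 0, 17 were higher and 2 lower, and in day 6 against day 0, 20 were higher and 6 were not called. Of all genes tested, 22.5% were higher and 18.1% lower on day 3 than on day 0, and 28.9% and 25.7% on day 6. Without library 2 of day 0, 21 of the listed targets were higher and 2 lower on day 6. The list's median log2 fold change was 0.60 on day 3 and 0.84 on day 6, each relative to day 0 and each beside 0.01 over all genes. Between day 6 and day 3 it was 0.38, beside -0.00 over all genes. Genes without counts on day 0 enter the test through later days alone, which tilts this list and the others towards higher calls. The list does not separate targets that p63 activates from targets that it represses. The direction of a call is therefore not read as an effect of TP63.

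CDH3, the basal-layer cadherin, averaged 5.81 ± 0.428, 23.4 ± 1.11 and 42.3 ± 3.18 CPM on day 0, day 3 and day 6, a log2 fold change of 2.87 (SE 0.10, adjusted p = 1.48e-09, edgeR) for day 6 against day 0. PAX9, a transcription factor of the esophageal squamous lining, averaged 0.44 ± 0.134, 3.52 ± 0.382 and 7.07 ± 0.110 CPM on those days. FRAS1, a basement membrane protein gene, and CDKN1A, which encodes the cell cycle inhibitor p21, reached 5.21 ± 0.446 and 16.0 ± 1.70 CPM on day 6, against 0.108 ± 0.0293 and 3.17 ± 0.646 CPM on day 0. KRT5 did not follow TP63 on day 3: it averaged 0.416 ± 0.175 CPM on day 3 against 1.05 ± 0.100 CPM on day 0 (log2 fold change -1.36, adjusted p = 0.00362, edgeR). On day 6 KRT5 averaged 6.16 ± 0.852 CPM, above both earlier days. KRT14, KRT6A and 7 other listed targets were too low to be tested, and KRT14 averaged 0.0256 CPM on day 6.

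Squamous differentiation genes, which are expressed above the basal layer, were called in both directions on day 3 and mostly higher on day 6. Of 30 listed, 19 were tested. In day 3 against day 0, 6 were higher and 5 lower, with a median log2 fold change of 0.00, or -0.09 where genes at 0 on a day were set at their bound or left out. In day 6 against day 0, 14 were higher and 1 lower, with a median of 1.04, and in day 6 against day 3, 12 were higher and 7 were not called, with a median of 1.15. Of all genes tested, 22.5% were higher and 18.1% lower on day 3 than on day 0, and 28.9% and 25.7% on day 6. Between day 6 and day 3, 11.5% of all genes were higher. Without library 2 of day 0 the day 6 against day 0 counts of this list were 18 and 1. With genes averaging under 5 CPM left out, 6 were higher on day 6 than on day 0, beside 3052 of the 11047 genes then tested. Listed genes under that level were no longer tested, so this count is not out of 19.

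KRT4, a keratin of the esophageal suprabasal layer, averaged 0.650 ± 0.305, 0.272 ± 0.0475 and 9.23 ± 1.47 CPM on day 0, day 3 and day 6. It was lower on day 3 than on day 0 (adjusted p = 0.0232, edgeR) and higher on day 6 than on either. EMP1, an epithelial membrane protein gene, averaged 1.32 ± 0.291, 0.968 ± 0.224 and 7.27 ± 0.369 CPM on those days. PPL, which encodes the cornified envelope protein periplakin, averaged 8.54 ± 1.76, 27.4 ± 0.565 and 36.9 ± 3.96 CPM. The gene lower on day 6 than on day 0 was ZNF750, a differentiation factor that acts downstream of p63, at 4.92 ± 0.368 CPM against 7.34 ± 0.191 CPM (adjusted p = 0.00171, edgeR).

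All 22 listed junction and epithelial targets of the grainyhead-like factors were tested. In day 3 against day 0, 12 were higher and 1 lower, and in day 6 against day 0, 15 were higher and 2 lower, with medians of 0.34 and 0.41. In day 6 against day 3, 6 were higher, or 12 without library 2 of day 0, with a median of 0.19. Of all genes tested, 22.5% were higher and 18.1% lower on day 3 than on day 0, and 28.9% and 25.7% on day 6. Between day 6 and day 3, 11.5% of all genes were higher with all libraries, or 1766 of 15345. Without library 2 of day 0 the number of all genes higher also rose, to 2591 of 15620. MAL2, a protein of apical transport, averaged 11.8 ± 2.34, 31.6 ± 2.27 and 88.4 ± 6.43 CPM on day 0, day 3 and day 6. The tight junction genes CLDN4 and TJP3 reached 123 ± 12.3 and 51.2 ± 5.03 CPM on day 6, against 40.2 ± 2.46 and 19.6 ± 1.5 CPM on day 0. CDH3, in this list as well, is given above. The lower ones on day 6 were the epithelial adhesion gene EPCAM, at 306 ± 16.6 CPM against 468 ± 86.5 CPM on day 0, and the splicing factor gene ESRP2, at 35.8 ± 2.65 CPM against 41.7 ± 2.04 CPM. The count of lower genes was 1 in 7 alternatives: library size as the only scaling, genes averaging under 5 CPM left out, days 6 and 0 fitted alone, and without library 1 or 3 of day 0 or library 2 or 3 of day 6. It was 3 with DESeq2 and without library 2 of day 3. ESRP2 and EPCAM were named because they were the only 2 lower, after their values were seen, as was ZNF750.

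**Figure D4:**
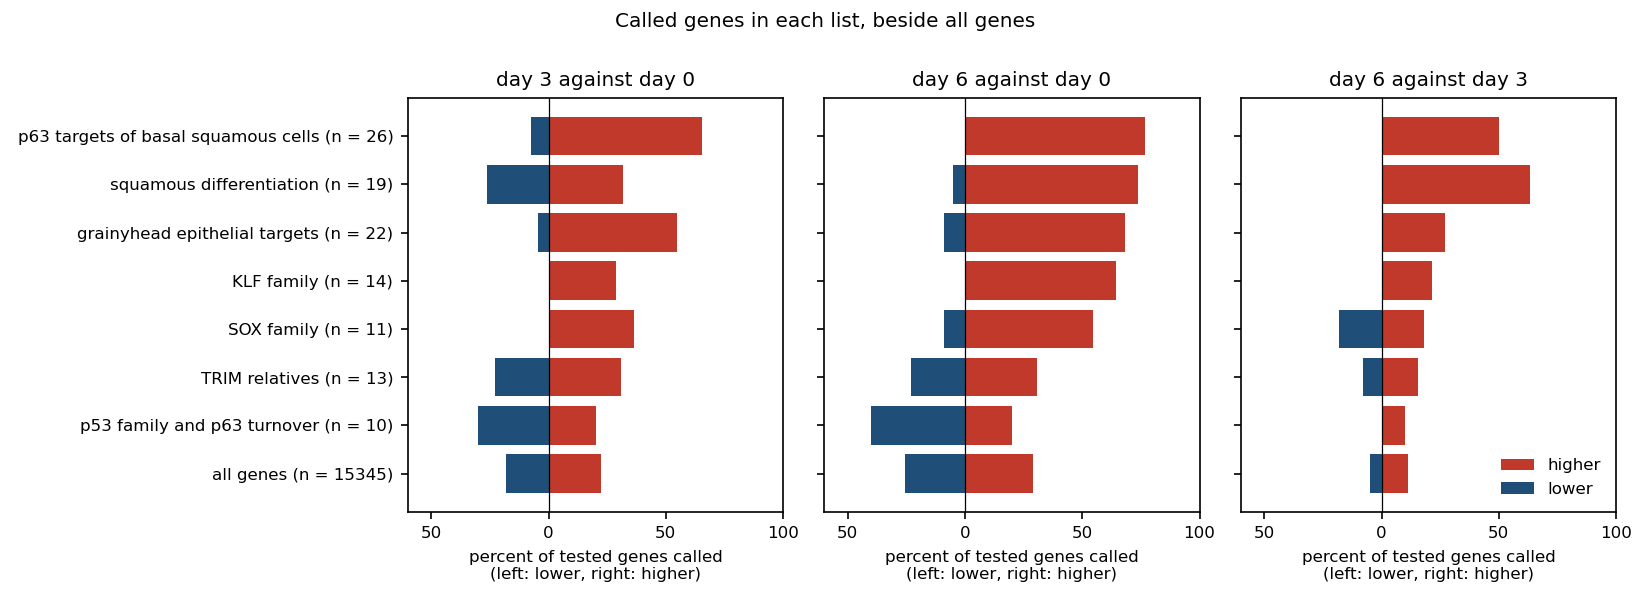
Share of the tested genes of 7 lists called higher (right) and lower (left) in the 3 comparisons, beside the share of all genes tested. For day 6 against day 0, 20 of 26 p63 targets and 14 of 19 squamous differentiation genes were higher, and 4 of 10 genes of the p53 family and p63 turnover were lower.

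The gene families to which the 10 belong were counted in the same way. Beside each of them, 28.9% of all genes tested were higher and 25.7% lower on day 6 than on day 0. Of 16 further KLF genes 14 were tested, and 9 were higher on day 6 than on day 0 and 5 were not called, with a median log2 fold change of 0.45. KLF12, a repressor that acts on TFAP2A, averaged 0.412 ± 0.0490, 2.66 ± 0.280 and 10.5 ± 1.38 CPM on day 0, day 3 and day 6. KLF14, KLF7 and KLF8 were the next by p, at 0.639 ± 0.205, 41.2 ± 1.94 and 2.13 ± 0.283 CPM on day 6, against 0.0266 ± 0.0241, 29.6 ± 1.24 and 0.664 ± 0.249 CPM on day 0.

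Of 19 further SOX genes 11 were tested, with 6 higher and 1 lower on day 6 than on day 0 and a median of 0.42. SOX4 was the most abundant of the named ones, at 201 ± 8.85 CPM on day 6 against 150.4 ± 4.01 CPM on day 0. SOX8 and SOX11 reached 1.34 ± 0.186 and 1.17 ± 0.185 CPM on day 6, against 0.0109 ± 0.0189 and 0.193 ± 0.0864 CPM on day 0. SOX13 was the lower one, at 43.8 ± 2.40 CPM on day 6 against 61.8 ± 2.84 CPM on day 0.

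Among 4 tested relatives of the AP-2 and grainyhead genes, TFCP2L1 was higher on day 6 (13.9 ± 1.51 CPM against 2.71 ± 0.474 CPM on day 0) and UBP1 was lower (88.8 ± 3.95 CPM against 124 ± 6.47 CPM), with a median of 0.05. Of 13 TRIM relatives, 4 were higher and 3 lower on day 6 than on day 0, with a median of 0.06. These counts lay near the shares of all genes tested, 28.9% higher and 25.7% lower. TRIM2 and TRIM32 were among the higher ones, at 123 ± 7.45 and 30.7 ± 2.07 CPM on day 6 against 79.4 ± 6.60 and 22.5 ± 1.55 CPM on day 0. TRIM24 and TRIM37 were among the lower ones, at 82.4 ± 4.08 and 38.1 ± 3.76 CPM on day 6 against 118 ± 6.21 and 55.3 ± 0.958 CPM on day 0.

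Of the neuroendocrine genes and those of neighbouring fates 14 were tested, with a median of 0.32 for day 6 against day 0. In that comparison 6 were higher, 3 lower and 5 not called, beside 28.9% of all genes higher and 25.7% lower. PROX1, a neuroendocrine-associated transcription factor, was lower, at 111 ± 4.70 CPM on day 6 against 172 ± 13.1 CPM on day 0. The adhesion gene NCAM1 was higher, at 20.1 ± 1.12 CPM on day 6 against 6.25 ± 0.761 CPM on day 0. YAP1, the Hippo pathway coactivator, had no count on day 0 and 333 counts on day 6, at least 110-fold higher with a floor of 3 counts over the day 0 group.

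Of the 12 PRC2 genes 3 were higher and 7 lower on day 6 than on day 0, with a median of -0.37. The shares of all genes tested were 28.9% higher and 25.7% lower. EZH2 was among the lower ones, with a log2 fold change of -0.36 (SE 0.07, adjusted p = 0.000830, edgeR), as were SUZ12 (-0.58) and AEBP2 (-0.71). EZHIP, an inhibitor of the complex, and PHF1, an accessory subunit, reached 4.29 ± 0.0974 and 19.0 ± 0.912 CPM on day 6, against 0.124 ± 0.0561 and 11.5 ± 0.804 CPM on day 0.

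Markers of other cell types moved over the same days in this cell line. Beside them, 28.9% of all genes tested were higher and 25.7% lower on day 6 than on day 0. Of 8 fibroblast markers 4 were tested and 3 were higher on day 6 than on day 0 (PDGFRA, PDGFRB and COL1A1). Summed over the 8, the level was 55.4 to 60.1 CPM on day 0, 78.0 to 83.8 on day 3 and 73.7 to 80.8 on day 6. Most of this sum was PDGFRA, which averaged 56.9, 75.1 and 65.3 CPM on those days, and THY1 was at 0 throughout. Of 8 leukocyte markers 5 were tested and 1 was lower (LYZ), with MS4A1 at 0 throughout. Their sums were 490.1 to 645 CPM on day 0, 347 to 363 on day 3 and 329 to 332 on day 6. Nearly all of this was LYZ, which averaged 544, 349 and 323 CPM on those days, while PTPRC averaged 0.516, 0.377 and 0.444 CPM. Of 6 endothelial markers 3 were tested and 2 were higher (TEK and VWF). Their sums were 2.82 to 3.62 CPM on day 0, 5.26 to 6.04 on day 3 and 9.35 to 13.1 on day 6. TEK was the largest part, at averages of 2.06, 3.70 and 9.39 CPM on those days. The part of other cell types in the results above was not tested.

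For each of the 10, the 3 genes of most similar course were sought among 13337 or 13338 genes averaging 1 CPM or more, by Pearson's r of log2 CPM over the 9 libraries. These libraries share days, so a high r mostly restates the pattern over days, and no p is given. SOX2 was most like FUT4, DCAF8L1 and JAM3, each with r of 0.994. JAM3, a junctional adhesion molecule gene, was at 0 on day 0 and averaged 0.860 ± 0.146 and 4.25 ± 0.168 CPM on days 3 and 6. TRIM29 was most like ARHGEF25 (0.997), DMTN (0.997) and PIMREG (0.996). DMTN, which encodes an actin-bundling protein, averaged 19.5 ± 0.472, 34.9 ± 0.284 and 44.4 ± 3.59 CPM on day 0, day 3 and day 6.

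TP63 was most like AZGP1P1 (0.962), VWA5B2 (0.958) and MBOAT1 (0.955), at r lower than those of SOX2 and TRIM29. AZGP1P1 is a pseudogene, whose counts may be shared with its parent gene and are uncertain. GRHL3 was most like S100A9 (0.975), IKZF2 (0.961) and KRT4 (0.952). S100A9, a calcium-binding protein gene of inflamed squamous epithelium, averaged 0.329 ± 0.0871, 0.0682 ± 0.0878 and 4.43 ± 1.24 CPM on day 0, day 3 and day 6. Its mean was lowest on day 3, as was that of GRHL3, although GRHL3 was not called between days 3 and 0. GRHL2 was most like GPR160 (0.974), CAMTA1 (0.963) and ARFGAP3 (0.954), all of which, like GRHL2, were highest on day 0 in library 2.

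Of the genes with lower levels on later days, KLF5 was most like C8orf76 (0.993), ASH2L (0.991) and PFDN2 (0.990), and TFAP2A most like ZNF77 (0.992), PHF12 (0.992) and NXF1 (0.989). GRHL1 was most like ZCCHC9 (0.987), SYAP1 (0.982) and CTNNB1 (0.981), the last of which encodes beta-catenin. KLF4 had DCXR (0.972), SHARPIN (0.953) and NFKBID (0.947) as its nearest genes, and TFAP2C had MEX3D (0.930), PHF23 (0.925) and NOA1 (0.924), the lowest values of the 10. Within the 10, SOX2 had an r of 0.982 with TRIM29 and of -0.982 with TFAP2A over the 9 libraries.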

How the data were processed

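Poly-A RNA sequencing gave 9 libraries, 3 each for day 0, day 3 and day 6. The deposited table holds estimated counts per gene symbol, whole numbers not scaled to a common total. The tools listed in the submitters' processing notes are kallisto 0.44.0, bcl2fastq 2.19 and DESeq2, beside the builds hg38, GRCh38 and GRCm38, with no roles; how transcripts were summed to genes is not stated.

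The counts were scaled by TMM and tested with the quasi-likelihood test of edgeR 4.0.16 (R 4.3.3), after filterByExpr with a minimum count of 10, with all 9 libraries in 1 fit. Alternatives used DESeq2 1.42.0, limma 3.58.1 (voom), other scalings and filters, and each library left out. The 10 genes and the lists were chosen with earlier results of these data known. Named from each list were up to 4 called genes with the lowest p for day 6 against day 0. Of the 35762 symbols 33545 matched GENCODE release 29. The fit was tested on simulated counts. Intervals and floors cover counting error only, and p-values cover the spread between the replicates, labelled biological. Values of some genes that this rule names are not reported here.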

Additional observations from a re-analysis of the deposited data

How the results depend on the processing

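With genes averaging under 5 CPM left out, TP63, SOX2 and GRHL3 were no longer tested. For day 3 against day 0, 2 of the 10 genes were then called, against 4 in the fit as reported. For day 6 against day 0 there were 4 against 8, and for day 6 against day 3 there was 1 against 3. Of the 11047 genes tested with this filter, 4656, 5923 and 1251 were called in these comparisons. Fitting days 6 and 3 alone gave 6 of the 10 and 4331 of all genes. Leaving out 1 library at a time gave 3 to 6 of the 10 between days 6 and 3. Of all genes, 1606 (without library 2 of day 3) to 4681 (without library 2 of day 0) were then called. For day 3 against day 0 it gave 3 to 5 of the 10, beside 4653 to 7289 of all genes. For day 6 against day 0 it gave 7 to 8 of the 10, beside 7268 to 9496 of all genes. DESeq2 called 5, 7 and 3 of the 10, beside 6324, 8325 and 2614 of all genes. Library size as the only scaling moved the share of higher among called genes to 69.2% and 66.6% for days 3 and 6 against day 0, against 55.3% and 53% with TMM.

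The sign changed for 3 uncalled values. KLF4 between days 6 and 3 was -0.0084 without a filter on low counts and ran between -0.0286 and 0.0325 with 1 library left out. TFAP2C in that comparison ran between -0.0271 and 0.0647, and GRHL2 for day 3 against day 0, at 0.28 with all libraries, between -0.0028 and 0.74, the ends being without library 1 and without library 2 of day 0. Causes were not tested. Over all alternatives and the 10 genes, 14 fold changes lost their call, 11 gained one and 503 kept sign and side.

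Replicate numbers did not pair the libraries: deviations from the day means correlated between -0.153 and 0.209 for equal numbers. With the replicate block, 4, 8 and 3 of the 10 genes and 6113, 8305 and 2293 of all genes were called.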
